A study of Caenorhabditis elegans with 2 samples.

Results

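The genes described here encode the factors that start and extend protein synthesis. They are the protein-coding genes of Caenorhabditis elegans named eif-, eef-, iff- or ife- followed by a number in the Ensembl annotation of WBcel235. The rule found 38 of the 19973 protein-coding genes on the 6 nuclear chromosomes, made up of 11 eIF3 subunit genes and 27 genes of other factors. For each gene, candidate binding regions of MEC-3 were taken whose summit lay from 1000 bp upstream to 500 bp downstream of an annotated 5′ end of a coding transcript, here called its window.

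MEC-3, a LIM homeodomain transcription factor of the touch receptor neurons, was mapped by chromatin immunoprecipitation and sequencing (ChIP-seq). All samples came from strain OP55 (unc-119(ed3) III; wgIs55), whose transgene carries MEC-3 with a C-terminal GFP-FLAG tag, and an antibody against GFP was used. Whole hermaphrodite late embryos were taken 4 h after synchronization by egg bleaching, with the age given as unknown, and the 2 biological replicates form the single group. The promoter that drives the fusion and the cells that express it are unknown here, MEC-3 is known from only a few neurons of the whole animal, and no control sample was used here. The region lists hold no expression values, so the stage label was not checked against marker genes.

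Initiation begins when eIF2 brings the initiator tRNA to the small ribosomal subunit. eIF3, a large multi-subunit scaffold, holds the other factors and the mRNA there, and eIF4E binds the mRNA cap. After subunit joining, eEF1A delivers aminoacyl-tRNAs and eEF2 moves the ribosome along. Growing cells need these factors, and some of the genes, such as iff-1 and ife-1, are known for their roles in the germ line. The worm genes for the largest eIF3 subunit, for eIF4G and for eIF4A carry other names, so the naming rule does not take them.

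The windows that show the results best are printed first, each 201 bases centred on the summit of the gene's highest pooled region, read 5′ to 3′ on the strand of the gene from the RefSeq copy of WBcel235 (ce11). Capitals mark motifs on either strand, which are the UNC-86 and MEC-3 type of site AATGCAT, the homeodomain core TAATTA, the purine repeat GAGAGA, the cyclic AMP element TGACGTCA, the POU octamer ATGCAAAT, the E-box CACGTG and the GC-rich box GGGCGG. The window of eif-3.B (chrII:14795072-14795272) is shown because it holds the strongest peak of these genes, that of eif-3.G (chrII:8442351-8442551) as an eIF3 gene without a final peak, that of ife-4 (chrX:1103767-1103967) for its AATGCAT, and that of eef-1A.2 (chrX:7823256-7823456) as an elongation factor gene. All of them lie outside exons of protein-coding genes.
eif-3.B: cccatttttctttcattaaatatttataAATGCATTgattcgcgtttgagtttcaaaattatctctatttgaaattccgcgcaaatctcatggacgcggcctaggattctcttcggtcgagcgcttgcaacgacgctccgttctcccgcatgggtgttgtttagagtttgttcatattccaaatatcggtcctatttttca
eif-3.G: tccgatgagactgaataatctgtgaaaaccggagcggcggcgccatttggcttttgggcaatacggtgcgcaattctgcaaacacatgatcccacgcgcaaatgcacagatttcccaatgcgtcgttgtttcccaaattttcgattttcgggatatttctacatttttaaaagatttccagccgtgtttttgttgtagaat
ife-4: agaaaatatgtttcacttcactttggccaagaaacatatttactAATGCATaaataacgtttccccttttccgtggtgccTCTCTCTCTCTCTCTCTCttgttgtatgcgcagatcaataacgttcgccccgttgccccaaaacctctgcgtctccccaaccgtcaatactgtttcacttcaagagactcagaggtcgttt
eef-1A.2: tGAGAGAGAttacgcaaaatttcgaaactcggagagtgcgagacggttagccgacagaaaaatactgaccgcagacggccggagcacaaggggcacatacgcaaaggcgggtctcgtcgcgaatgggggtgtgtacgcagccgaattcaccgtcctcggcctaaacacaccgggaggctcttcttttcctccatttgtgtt

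The authors' lists comprised 457 final peaks, 27953 candidate regions called on both replicates together (the pooled list), 30000 candidates in replicate 1 and 22464 in replicate 2. Each region carries a signal value of the authors, whose scale is unknown here, so values were ranked only within a list and no mean over replicates was formed. The depth of the libraries is unknown. The lowest final peak had a signal of 77.4 and the next pooled region, at rank 458, also 77.4 after rounding. Very weak regions are included, with a lowest −log10 q-value of 0.0174 in the pooled list.

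Among the 38 factor genes, 4 had a final peak in the window, and 3 of these encode eIF3 subunits. The genes were eif-3.B, eif-3.E and eif-3.I, and eif-4A3, the RNA helicase of the exon junction complex. The share was 10.5% of the 38 genes, against 1.66% of all protein-coding genes. It was 27.3% for eIF3 (3 of 11) and 3.70% for the other factors (1 of 27). A pooled candidate of any strength lay in the windows of 27 of the 38 genes (71.1%), against 41.2% of all genes. Of the genes with a pooled candidate, 14.8% of the factor genes (4 of 27) and 4.02% of all 8225 genes had a final peak. These counts rest on 4 peaks, and no test was run between the gene groups, so no difference between eIF3 and the other factors is claimed.

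The eIF3 subunits fell into 2 separate levels in the pooled list. The 3 with a final peak had signals of 94.6 to 125, and the other 5 with a candidate region had 31.8 to 39.9, close to the median of 32.5 over all genes with a region. Nothing lay between. The median over the 8 eIF3 genes was 36.4, over the 19 other factor genes 36.2 and over all 27 factor genes also 36.2. The eIF3 median was thus close to that of the other factors, and these medians lay above the 32.5 of all genes. The other factor genes had a break as well, with 18 from 24.7 to 60.7 and eif-4A3 above them at 86.3. In both groups the upper genes are those of the final call. The median percentile of the 27 factor genes among all genes with a pooled region was 61.0.

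**Figure D1:**
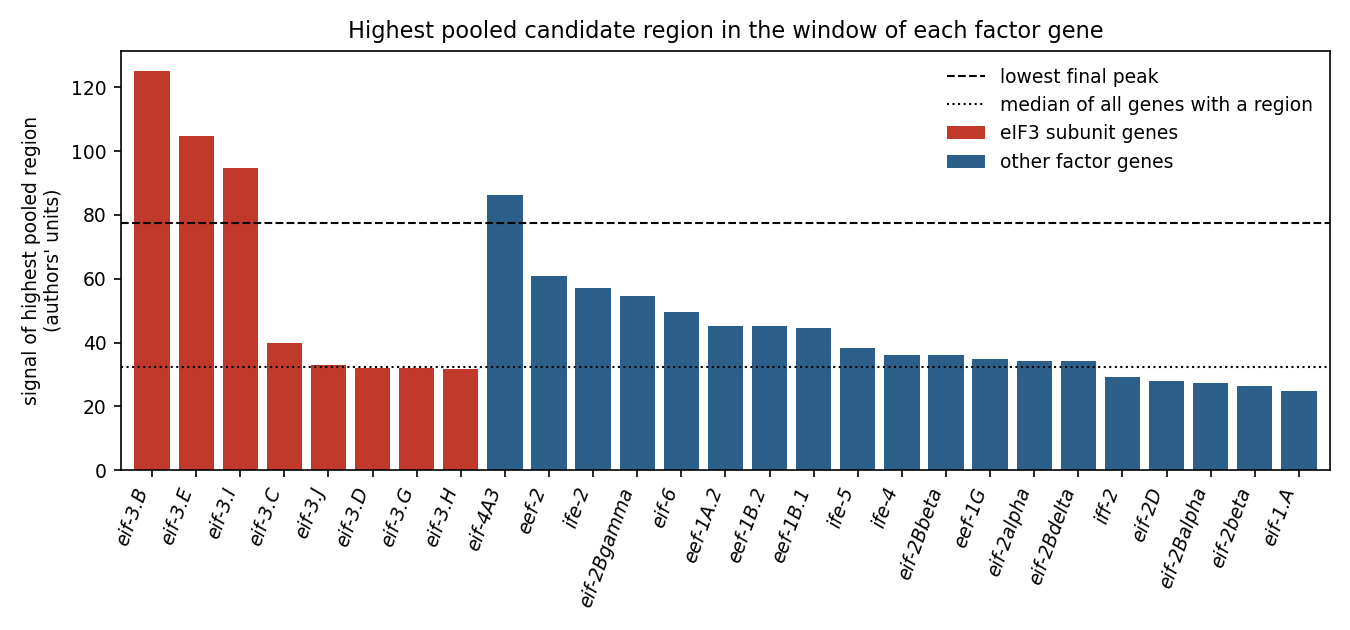
Highest pooled region of the 27 factor genes that have one, as the authors' signal value per gene, with eIF3 subunit genes in red and the other factors in blue, each sorted by signal. Of the bars, 4 pass the dashed line at the lowest final signal (77.4), and the dotted line marks the median of all 8225 genes with a region (32.5).

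eif-3.B encodes a core scaffold subunit of eIF3. Its region, chrII:14794950-14795393, had a signal of 125 in the pooled list (rank 80 among the regions of that list), 42.6 in replicate 1 (rank 387) and 77.0 in replicate 2 (rank 72). The summit lay 232 bp upstream of the 5′ end, outside protein-coding genes, and no other gene's window held it, since the next gene upstream ends 2748 bp away. Both replicates placed it among their 457 highest regions, with summits 22 bp apart.

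eif-3.E encodes a PCI-domain subunit of eIF3. Its region on chromosome I had a pooled signal of 105 (rank 142), with 54.0 in replicate 1 (rank 110) and 51.6 in replicate 2 (percentile 96.6 among genes). It too was among the 457 highest of both replicates, with summits 14 bp apart. The pooled summit lay 215 bp upstream of eif-3.E and 533 bp upstream of the divergent gene B0511.17, and thus in both windows. The region cannot be assigned to either gene from its position alone.

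eif-3.I encodes a WD-repeat subunit that sits with eif-3.B in the complex. The signal was 94.6 in the pooled list (rank 200), 38.3 in replicate 1 (rank 702) and 54.7 in replicate 2 (rank 198). The region was therefore among the 457 highest of replicate 2 but not of replicate 1. Its summit lay in an intron of eif-3.I, 486 bp upstream of an internal 5′ end and 2057 bp downstream of the most upstream one. With the most upstream 5′ end alone, eif-3.I had no candidate region.

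eif-4A3 was like eif-3.I in both respects. Its signal was 86.3 in the pooled list (rank 282), 39.5 in replicate 1 (rank 581) and 43.3 in replicate 2 (rank 437). Replicate 2 had it among the 457 highest and replicate 1 did not. The summit lay in coding sequence of eif-4A3, 117 bp downstream of an internal 5′ end and 1924 bp downstream of the most upstream one, and with that end alone the highest signal was 45.5. The 2 genes called in the top regions of replicate 1 were eif-3.B and eif-3.E (2 of 38, against 1.34% of all genes), and replicate 2 called all 4 (4 of 38, against 1.97%). Both replicates called eif-3.B and eif-3.E together, 2 of 38 genes, against 0.766% of all genes.

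The remaining eIF3 subunits stayed well under the final list. eif-3.C, a core subunit, had a pooled signal of 39.9, with 17.1 and 20.0 in replicates 1 and 2. eif-3.J, a loosely bound subunit, had 32.9, with 16.6 in replicate 1 and 22.2 in replicate 2. eif-3.D, whose human counterpart can bind the mRNA cap, had 32.0, with 17.0 and 24.7 in replicate regions that did not overlap, their summits 478 bp apart. The RNA-binding subunit gene eif-3.G had 32.0 in the pooled list and 16.7 in replicate 1, and no region in replicate 2. eif-3.H, an MPN-domain subunit, had 31.8, with 13.3 and 16.9. The 3 called genes had at least 38.3 in replicate 1 and 51.6 in replicate 2, and since the final list was derived from these replicates, that they are higher there is set by the call. The pooled list had no region at eif-3.F, eif-3.K and eif-3.L. The first 2 had a weak one in replicate 1 alone (12.9 and 15.8), and eif-3.L, a peripheral subunit, had none in the 3 lists, with the nearest pooled summit 5847 bp away.

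Genes named eif-2, which cover eIF2, eIF2B and the alternative factors eif-2A and eif-2D, had no final peak (0 of 10). Of all genes 1.66% had one, so this count does not set them apart. Of the 3 eIF2 subunits, eif-2alpha, whose product is the target of the stress kinases, had a pooled signal of 34.3 and 24.5 in replicate 2, with no region in replicate 1. The pooled summit of eif-2alpha lay 714 bp upstream, in an intron of phb-1. eif-2beta had 26.5 in the pooled list and 13.3 in replicate 1, with none in replicate 2. eif-2gamma, the GTP-binding subunit, had a region in replicate 2 alone (20.5). The highest value came from eif-2Bgamma, a subunit of the exchange factor eIF2B, with a pooled signal of 54.7. Its replicates differed: rank 16168 with 16.4 in replicate 1 and rank 931 with 35.8 in replicate 2. That summit lay in an intron of the upstream gene C15F1.5, 40 bp from sup-39, which the annotation lists as an snRNA gene, and 24.7% of the 24-mers in its window occur elsewhere in the genome, the highest share among the 27 regions. Among the other eIF2B genes the pooled signal was 36.0 at eif-2Bbeta, 34.3 at eif-2Bdelta and 27.5 at eif-2Balpha, and eif-2Bepsilon had no region in any list. For the start-site and alternative factors, the pooled signal was 28.0 at eif-2D and 24.7 at eif-1.A, and there was none at eif-1 and eif-2A. The summit given for eif-2D lay 30 bp upstream of ndub-5 and 338 bp upstream of eif-2D, so ndub-5 is the nearer gene. In replicate 2 eif-2D had 25.9, and eif-1.A had 31.1 (rank 1729) in a region other than its pooled one. Neither had a region in replicate 1. eif-1 had 12.9 in replicate 1 alone, and eif-2A had 13.3 in replicate 1 and 16.0 in replicate 2. Counting any overlap of a region with the window in place of its summit, eif-1.A had 58.1 and eif-2beta 41.4.

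The 5 eIF4E genes, which encode cap-binding proteins, spread widely. ife-2 had a pooled signal of 57.1, with 21.8 in replicate 1 and 35.2 in replicate 2, at a summit 40 bp into its own coding sequence. ife-5 had 38.2 in the pooled list and 30.3 in replicate 1 (rank 2097), and no region in replicate 2. Its summit lay in coding sequence 272 bp past an internal 5′ end, and 8.99% of the 24-mers there occur elsewhere in the genome. How reads from repeated sequence were counted was not tested. ife-4 had 36.2, and its replicate regions, with 20.9 and 20.4, lay 860 bp apart. ife-1 had a region in replicate 2 alone (21.5), and ife-3 had none in any list. Of the 5 genes, ife-2 and ife-4 had a region in both replicates, at percentiles of 68.7 and 90.6 for ife-2 and of 64.8 and 53.7 for ife-4 in replicates 1 and 2. With the window from 2000 bp upstream, ife-5 had 61.1, ife-3 had 64.1 and ife-1 had 48.8.

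Of the 6 elongation factor genes, 5 had a pooled region, against 41.2% of all genes, and 0 had a final peak, against 1.66%. In the pooled list eef-2, the translocase gene, had 60.7 (rank 1300), the highest value of the factor genes below the final peaks. It had 20.4 in replicate 1 (rank 9006) and 31.3 in replicate 2 (rank 1682), at summits 2 bp apart, and the pooled summit was 21 bp upstream of the 5′ end and also 244 bp upstream of the divergent gene clsp-1. Of the 5 eEF1 genes, which supply and recharge the carrier of aminoacyl-tRNA, 3 were close together, with 45.3 at eef-1A.2, 45.1 at eef-1B.2 and 44.6 at eef-1B.1, while eef-1G had 34.7, nearer the all-gene median. The summit given for eef-1B.1 lay in coding sequence of aco-2, 11 bp downstream of the aco-2 5′ end and 342 bp upstream of eef-1B.1, so aco-2 is the nearer gene. The pooled list gives 1 value per gene and no spread, so the order of these genes was not tested. eef-1A.1 had no pooled summit in its window and a weak region in replicate 2 alone (15.3), but a pooled region of 48.2 overlapped the window edge with its summit outside. At eef-1A.2 the highest regions of the replicates were not the same region, with summits 708 bp apart.

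The other members were eIF6 and the eIF5A genes. eif-6, whose product keeps the ribosomal subunits apart, had 49.6 in the pooled list, 26.3 in replicate 1 and 27.0 in replicate 2, and its summit lay 946 bp upstream, in coding sequence of pbs-2, a proteasome subunit gene. iff-2 had 29.2, with 17.4 in replicate 2 and no region in replicate 1, and iff-1 had none in any list. In all, 11 of the 38 genes had no pooled region. Of these, 7 had a region in a replicate list, at percentiles of 9.43 to 34.4 among genes in replicate 1 and 14.9 to 59.7 in replicate 2. The 4 without any were eif-3.L, eif-2Bepsilon, ife-3 and iff-1, against 43.5% of all genes without any. Of these absences, 3 depended on the window edge, since regions with a summit outside overlapped the windows of ife-3 (64.1), iff-1 (48.0) and eif-2Bepsilon (22.4).

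Each replicate list had a region at 27 of the 38 genes, against 42.6% of all genes in replicate 1 and 35.7% in replicate 2, and 20 genes had a region in both. At 15 of these 20 the highest regions overlapped, against 70.8% over all 4790 genes with a region in both. The median percentile of the factor genes among genes with a region was 43.2 in replicate 1 and 72.1 in replicate 2. Of the 20 genes, 14 had the higher percentile in replicate 2, against 46.9% of all genes. Spearman's rho of the signals was 0.73 over the 20 genes and 0.49 over the 16 of them without a final peak. Over all 4790 genes, a set that keeps those with a final peak, it was 0.41. These are correlations across genes that share both libraries, given as a description.

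**Figure D2:**
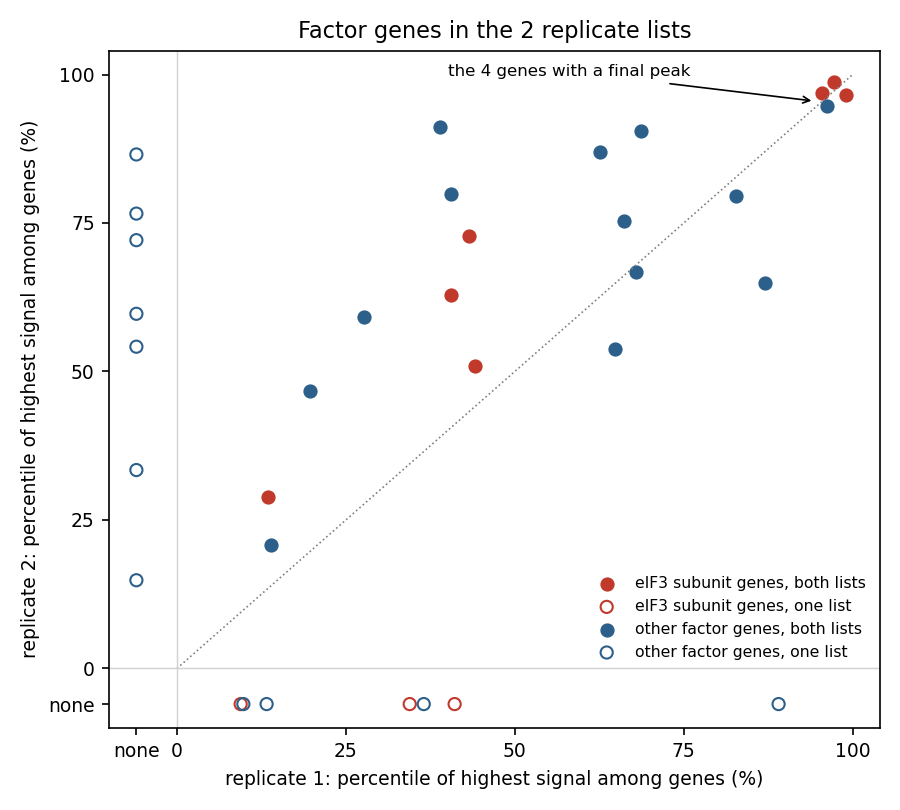
Percentile of each factor gene's highest signal among all genes with a region, in replicate 1 (horizontal, %) and replicate 2 (vertical, %), with open points at "none" for genes listed in a single replicate and a dotted line of equal percentile. The 4 genes with a final peak sit together above 94% in both replicates, and most other points lie above the line.

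Most summits lay upstream of the 5′ end. Of 27 summits, 18 lay upstream of the nearest 5′ end (66.7%), against 64.5% over all genes. The median position was 215 bp upstream for the factor genes and 175 bp upstream for all genes. It was 274 bp upstream for eIF3, where 7 of 8 summits were upstream with eif-3.D as the exception (87.5%), and 23 bp upstream for the 19 other factor genes, where 11 were upstream (57.9%). For eif-3.I the nearest 5′ end was internal, and its summit lay 2057 bp downstream of the most upstream one. Coding sequence held 9 of the 27 summits (33.3%), against 31.8% over all genes, and sequence outside protein-coding genes 11 (40.7%), against 39.1%. A summit that lay in another gene's window as well was found at 12 of 27 genes (44.4%), against 27.8% of all genes, so for these 12 the position alone assigns the region to neither gene. Small RNA genes, here those annotated as tRNA, snRNA, snoRNA or rRNA, lay within 500 bp of 1 of the 27 summits, that of eif-2Bgamma, and of 2.38% over all genes. Other types of RNA gene were not searched.

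**Figure D3:**
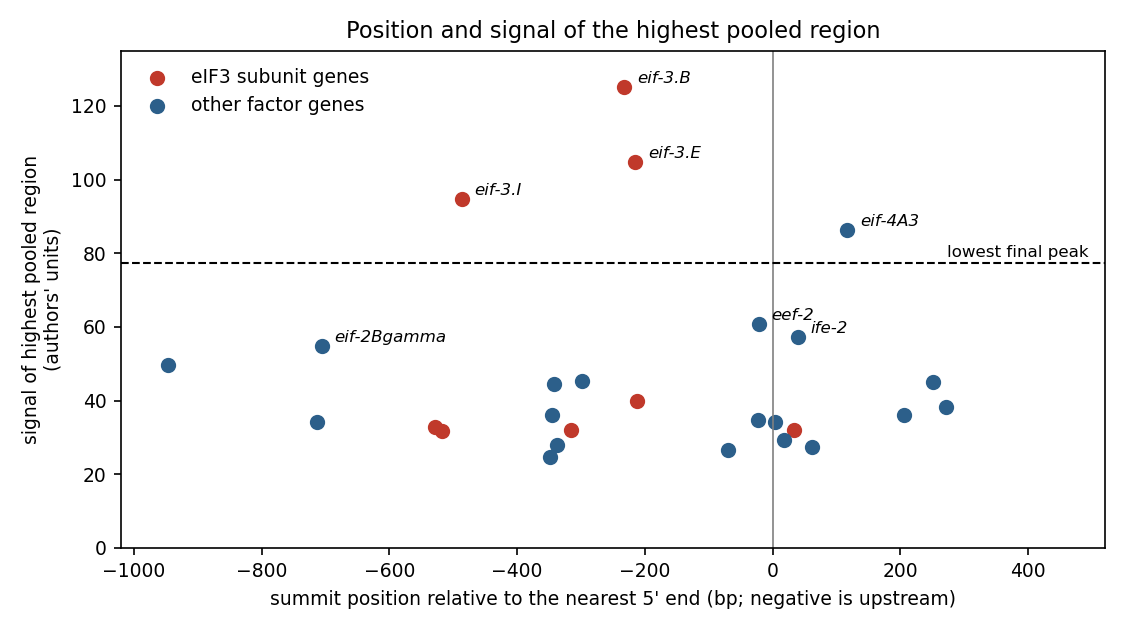
Signal of the highest pooled region (vertical, authors' units) against the distance of its summit from the gene's nearest 5′ end (horizontal, bp, negative upstream) for the 27 factor genes. The 3 called eIF3 genes lie 215 to 486 bp upstream and eif-4A3 117 bp downstream. For eif-3.I and eif-4A3 the nearest 5′ end is an internal one.

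None of the 7 motifs searched around the summits was common to the called genes. AATGCAT occurred within 100 bp of the summit at 4 of 27 factor genes (14.8%), against 2.54% of 7137 highest regions of all genes. The 4 were eif-3.B, eif-3.H, eif-3.J and ife-4, so it was at 3 of the 8 eIF3 regions (37.5%) but at 1 of the 4 called genes. The summit given for eif-3.H lay 22 bp upstream of C41D11.3 and 518 bp upstream of eif-3.H, so C41D11.3 is the nearer gene. At eif-3.B the motif reads AATGCATT, which matches on both strands, and the nearer of the 2 matches starts 71 bp before the summit. eif-3.H and eif-3.J carry it at signals of 31.8 and 32.9, near the all-gene median, and among all 457 final peaks its share was 2.41%. In the whole windows from 1000 bp upstream to 500 bp downstream of the most upstream 5′ end, it occurred in 16 of 38 factor genes (42.1%) and 7 of 11 eIF3 genes (63.6%), against 20.9% of all genes. These windows are longer than the stretches around summits, so the 2 sets of shares are not comparable. AATGCAT is short and no test was run.

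The other motifs were at few summits. CACGTG occurred at 3 of 27 (11.1%, against 4.41% of the highest regions of all genes), namely eif-4A3, eif-2Bbeta and eif-3.H. GAGAGA was at 2 (7.41%, against 17.8%), eef-1A.2 and ife-4. TAATTA was at eef-1B.1 alone (3.70%, against 7.02%) and GGGCGG at eif-1.A alone (3.70%, against 7.89%). TGACGTCA and ATGCAAAT were at none of the 27, where 1.06% and 1.47% of all genes' regions have them. In 18 of the 27 windows none of the 7 motifs was found. The GC content ranged from 28.4% at eif-3.H to 57.7% at eif-4A3, with a median of 41.8%, equal to that of all genes' highest regions, and 23 of the 27 windows held no 24-mer that occurs elsewhere. At the called genes it was 40.3% (eif-3.B), 42.3% (eif-3.E), 42.8% (eif-3.I) and 57.7% (eif-4A3).

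The larger lists of other translation genes had medians close to that of the factor genes (36.2), and the small lists spread on both sides. The cytosolic ribosomal protein genes had a pooled region at 63 of 78 (80.8%) with a median of 36.0 and a final peak at 3 (3.85%). Aminoacyl-tRNA synthetase genes, which charge the tRNAs, had 22 of 32 (68.8%), a median of 35.9 and a final peak at 2 (6.25%). Final peaks of these lists were at rps-24 (204), rpl-43 (116), rps-26 (90.6), ears-2 (157) and mars-1 (90.2). All 5 cap, scanning and poly(A) partners had a region and no final peak, with a median of 39.4 and values from 31.6 at ifg-1, the eIF4G gene, to 56.2 at pab-2. Of the 3 termination and recycling genes, erfa-1, a release factor gene, had 70.2 and erfa-3 39.5 (median 54.9), and abce-1 had none. The 4 mitochondrial factor genes had 37.5 to 76.7 (median 50.8), with the highest at gfm-1, at rank 476 just under the final list. Of the 5 translation control kinases, 2 had a region, let-363 with 33.0 and gcn-2 with 27.5 (median 30.2). The median over all genes with a region was 32.5.

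**Figure D4:**
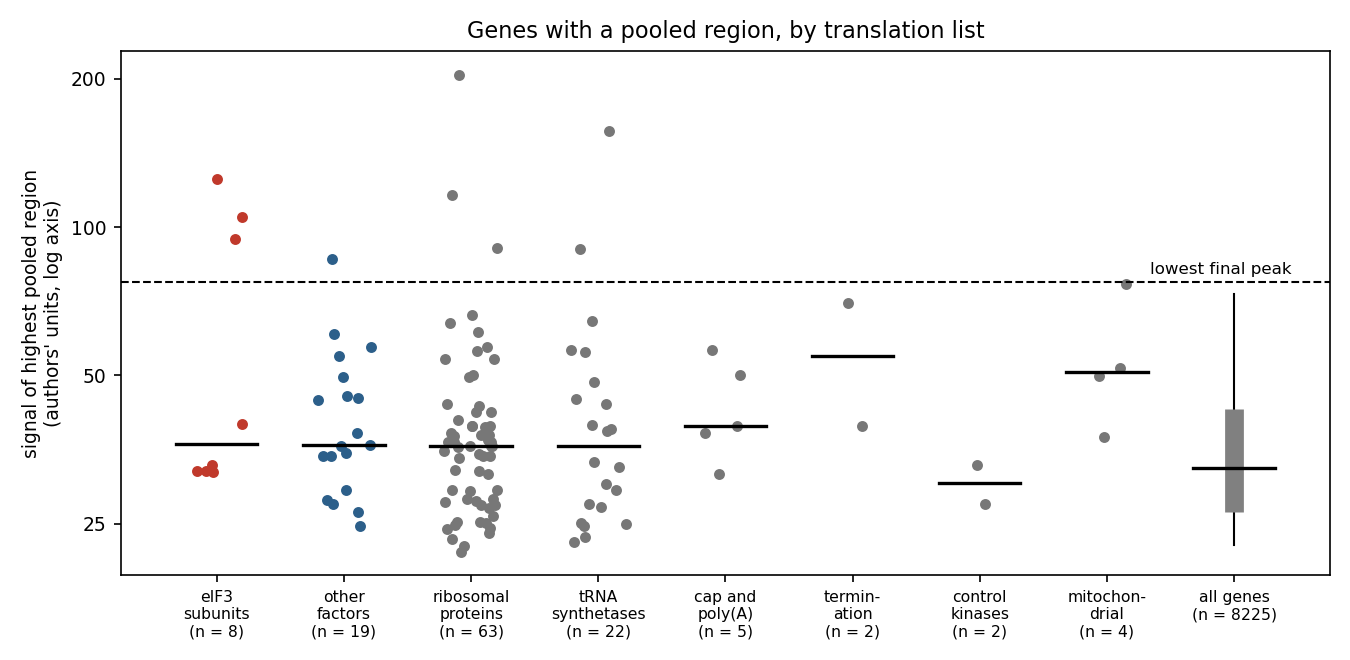
Signal of the highest pooled region (log axis, authors' units) for genes of each translation list, 1 point per gene with its list's median as a bar, and for all genes the median, the quartiles (box) and the 5th to 95th percentiles (line). The medians of eIF3, the other factors, ribosomal proteins and synthetases lie between 35.9 and 36.4, and the dashed line is the lowest final signal (77.4).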

How the data were processed

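ChIP-seq of tagged MEC-3 was measured in 2 replicates of 1 group. Per the deposited file list, the authors called candidate regions on each replicate and on both together, with a control file, and derived a final list by the irreproducible discovery rate. Per the labels, the builds are ce11 and ce10, and only ce11 was used here. The signal value and the −log10 of a q-value are the authors', as deposited, and the p-value column is empty. Not given in the sources used here are the aligner, the caller, the thresholds and the depth.

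Regions were assigned to protein-coding genes of Ensembl release 115 (WBcel235) by summit, with python 3.11.15, numpy 2.4.6, pandas 2.3.3 and scipy 1.17.1. The assignment was tested on simulated regions. Coordinates are 1-based. Percentiles are ranks among genes with a region in that list. A replicate call is a region among its 457 highest. Both strands of the 201 bases around each summit were searched for 7 motifs. With 1 group, no comparison between conditions exists and no p-value was computed. Every member was named where it had a region, other lists by up to 3 final peaks, and further genes of small lists after their values were seen. The members and lists were chosen with earlier results of these data known. 2 list symbols, etf-1 and gfm-2, matched no gene. Alternatives were the window, the 5′ ends, overlap in place of summits, the nearest gene alone, the stronger final peaks and single replicates.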

Additional observations from a re-analysis of the deposited data

How the results depend on the processing

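The count of factor genes with a final peak was 4 in 5 of the settings tried: windows from 500 and from 2000 bp upstream, any overlap with the window, the nearest gene only and the replicate 2 list alone. It was 3 among the stronger final peaks by signal, where the other factors had 0 in place of 1. With the most upstream 5′ end of each gene it was 2, again with 0 of the other factors, since eif-3.I and eif-4A3 are called from internal ends. Leaving out a replicate gave 2 to 4 factor genes, 2 to 3 eIF3 genes and 0 to 1 other factors, the lower value being that without replicate 2. Genes with a pooled region numbered 23 to 33 against 27, and their median signal 35.4 to 41.4 against 36.2. The shares of 1.66% and 41.2% over all genes belong to the main setting. For the changed windows, 5′ ends and overlap no share over all genes is given, so these counts describe the factor genes alone. Single genes moved by over 1.5 times at eif-1.A (58.1 against 24.7) and eif-2beta (41.4 against 26.5) by any overlap, at ife-5 (61.1 against 38.2) with the window from 2000 bp upstream and at eif-4A3 (45.5 against 86.3) with the most upstream 5′ end. Overlapping highest regions numbered 11 with summits within 100 bp and 14 at 50% reciprocal overlap, against 15. No paired analysis was possible because there is 1 group. Unknown depth limits what a missing region shows.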

Other observations

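The windows of eef-1A.2 and eef-1G, the genes of an eEF1A and of eEF1 gamma, share a run of 15 bases, AGGGGCACATACGCA, which was noticed after the sequences were seen. It is not the longest such run, since the windows of eif-2Bdelta and eif-3.J share 16 bases, a run found in 2 of the pooled windows. In eef-1A.2 it lies in the window printed above. It occurs 5 times in the 6 nuclear chromosomes, and 3 of the 27953 pooled regions hold it within 100 bp of the summit. The region of eef-1A.2 had a pooled signal of 45.3, and that of eef-1G, shared with ctf-4, 34.7. The remaining one, with 25.3 (rank 21039), lay in the windows of icd-1, which encodes a subunit of the nascent polypeptide-associated complex, and of vps-32.1. No final peak holds the run, and the windows of eef-1A.1, eef-1B.1, eef-1B.2 and eef-2 lack it. Nothing was tested on it.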
